A study of Mus musculus with 2 samples.

Results

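The cells described here are cells from mouse liver chosen for CD3 RNA. Their RNA combined high Ikzf2, the gene of the transcription factor Helios, with the granule protease gene Gzmb and with no Cd8b1, Cd4 or Foxp3. A barcode was a member if it held at least 2 unique molecular identifiers (UMI, each counting 1 captured RNA molecule) of Cd3d, Cd3e and Cd3g together, at least 2 of Ikzf2 and at least 1 of Gzmb. It also had to hold none of Cd8b1, Foxp3 or Cd4, at most 1 of Ebf1 and Ms4a1 together, and under 4 of Mki67 and Top2a together. In all, 196 of 10366 kept barcodes were members, a share of 1.89% (95% exact interval 1.64 to 2.17). Among the 2558 barcodes that passed the CD3, B cell and cell cycle limits their share was 7.66% (6.66 to 8.76). The text calls them Ikzf2-high cells, and the plots call them members.

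The study prepared immune cells from livers of 8-week-old Rcrin knockout mice, described as a conditional knockout in liver, and of 8-week-old WT mice, described as flox. Both groups have the strain label RedMUC298trTg, and the labels used here do not name the driver of the deletion or the cells in which it acts. Livers were digested with collagenase IV, and a sorted suspension was loaded on a 10x Genomics Chromium instrument. The labels list 1 sample per genotype.

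The Rcrin knockout files (counts, genes and barcodes) were identical to the WT files, so all 11192 barcodes are shared and the data amount to 1 sample whose genotype cannot be told. No comparison of genotypes was made, and nothing below has a replicate check or a test. Intervals are exact 95% intervals for counting error only. The Ikzf2-high cells held 2291 to 45065 UMI each, with a median of 4945.5 UMI and 1950 genes, and together 1204676 UMI. Their median share of mitochondrial UMI was 4.39%. Levels are UMI per 1000000 summed over the cells of a group (CPM), and 3 UMI, the floor used here, correspond to 2.49 CPM in the Ikzf2-high cells.

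They were set beside other cells of the same matrix, chosen by counts of marker genes. The 3 main comparisons were with 429 Gzmb+ CD8 T cells (at least 1 Cd8b1 and 1 Gzmb UMI, at most 1 Ikzf2 UMI), 175 Zbtb16+ T cells (at least 1 Zbtb16 UMI, at most 1 Ikzf2 UMI, no Cd8b1 or Foxp3, and no limit on Gzmb) and 75 CD3- ILC1-type cells (no Cd3 UMI, at least 1 Ncr1 UMI, no Eomes, and a UMI of Itga1, Cxcr6 or Cd200r1). Their median depths were 4044, 5685 and 4761 UMI. The Zbtb16+ T cells had no limit on Cd4, which the Ikzf2-high cells could not hold. The plots also show 211 CD3- NK-type cells (Ncr1 and Eomes), 200 naive-type CD8 T cells, 47 Foxp3+ T cells and 3003 B cells. No cell was in more than 1 of these groups.

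Some T cells recognise conventional peptide antigens through an alpha-beta receptor with the CD4 or the CD8 alpha-beta coreceptor. Others, grouped as unconventional, carry a gamma-delta receptor, recognise CD1d or other non-classical molecules, or carry CD8 as an alpha-alpha homodimer. The gut epithelium is the best known site of CD8 alpha-alpha T cells, and in mice many of them come from self-reactive thymocytes, show Helios and carry inhibitory Ly49 receptors. The liver holds many innate-like T cells, NK cells and type 1 innate lymphoid cells (ILC1) in its sinusoids.

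Of the 4 genes that name these cells, Ikzf2 and Gzmb were used to choose them. Ikzf2 stood at 940 CPM, with 43 cells at 2 UMI, 30 at 3 and 123 at 4 or more, and Gzmb stood at 2135 CPM, with 19 cells at 1 UMI and 154 at 4 or more. Cd8a, the coreceptor alpha chain, was found in 93 of the 196 cells (47.4%), and Tcrg-C2, a gamma chain constant gene, in 81 (41.3%). So neither gene was found in most of the cells at this depth, and the 196 cells were a mixed set by these genes. The general T cell marker list holds 7 genes, of which Cd3d, Cd3e and Cd3g were used by the rule. Of the others, Trac, Trbc2 and Bcl11b were found in at least 25% of the cells, and Themis was not. The CD3 limit is on a sum of 3 genes, and 19 of the 196 cells had 0 Cd3d UMI and 53 had 0 Trac UMI. Whether every cell was a T cell was not tested. In the regulatory T cell list, 3 of 5 genes had UMI and Tnfrsf18 was found in at least 25% of the cells, while Ikzf4 and, by the rule, Foxp3 were at 0. That list summed to 133 CPM in Ikzf2-high cells and 2173 CPM in Foxp3+ T cells.

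For 4 lists of other cell types, much of the signal came from a single barcode. A single cell held 52.0% of the summed B cell list, 84.7% of the neutrophil list, 76.2% of the endothelial list and 48.2% of the macrophage list. The others were more evenly spread, with 29.9% of the dendritic cell list, 12.6% of the hepatocyte list and 14.3% of the erythroid list in the top cell. Bst2 of the dendritic cell list and Alb of the hepatocyte list were found in at least 25% of the cells, as were Igkc, Ighm and Cd74 of the B cell list. Scrublet called doublets in 4 of the 196 cells (2.04%), against 3.27% of all kept barcodes, and the rule keeps these cells. The immunoglobulin light chain gene Igkc stood at 12890 CPM in Ikzf2-high cells, but 1 cell held 55.2% of its UMI. Without the 2 cells of 20 or more Igkc UMI it stood at 116 CPM, beside 140 CPM in Gzmb+ CD8 T cells, 107 CPM in Zbtb16+ T cells and 108 CPM in ILC1-type cells treated the same way. The summed NK cell list stood at 491 CPM in Ikzf2-high cells and the ILC1 list at 665 CPM, with Klrb1c, Prf1 and Itga1 the genes of those lists found in at least 25% of the cells. The NK cell list stood at 502 CPM in Gzmb+ CD8 T cells, 336 CPM in Zbtb16+ T cells and 3994 CPM in NK-type cells. The ILC1 list stood at 175 CPM in Gzmb+ CD8 T cells, 330 CPM in Zbtb16+ T cells and 1589 CPM in ILC1-type cells. NK-type and ILC1-type cells were chosen by some genes of these lists. The top Ikzf2-high cell held 5.25% of the NK cell list and 6.49% of the ILC1 list. How far cells of another type add to the values below was not tested.

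Across all genes with a mean of at least 20 CPM, few differed by 2-fold or more. Over Gzmb+ CD8 T cells, 187 of 5786 genes were at least 2-fold higher (3.23%) and 113 at least 2-fold lower (1.95%). Over Zbtb16+ T cells, 198 of 5781 were higher (3.43%) and 125 lower (2.16%). Over ILC1-type cells, 130 of 6063 were higher (2.14%) and 427 lower (7.04%). The median log2 ratio of all genes was 0.01, -0.01 and -0.11 in these 3 comparisons. Genes used to define either group are left out of all these counts. The lists of genes named below held 10 to 26 genes each, and their counts are over the members of a list with a mean of at least 20 CPM in that comparison, so a gene low in both groups is not counted. CD3 RNA chose the Ikzf2-high cells and its absence the ILC1-type cells, so the comparison of T cell receptor genes between these is not independent of how the cells were chosen.

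The cells held RNA of alpha-beta receptor chains, and many held gamma chain RNA as well. Of 8 genes of the receptor complex outside the rule, 4 were at least 2-fold higher than in Gzmb+ CD8 T cells and none lower, with a median log2 ratio of 1.55. Over Zbtb16+ T cells 1 was higher and none lower, with a median of -0.14. Over ILC1-type cells 5 were higher and none lower, with a median of 2.87. Of all genes, 3.23% were that much higher than in Gzmb+ CD8 T cells and 2.14% than in ILC1-type cells. Over Gzmb+ CD8 T cells, Tcrg-C1, Tcrg-C4 and the delta chain gene Trdc reached the CPM limit only through the Ikzf2-high cells. The same held for Trac, Tcrg-C2 and Trdc over ILC1-type cells. Such genes could count only as higher, so the counts and medians in both comparisons are partly set by the limit. Trac, the alpha chain constant gene, was found in 143 of the 196 cells (73.0%) at 398 CPM (363 to 435), beside 526 CPM in Gzmb+ CD8 T cells and 516 CPM in Zbtb16+ T cells. In cells without CD3 it was near background, at 7.05 CPM in ILC1-type cells, which is 3 UMI. The ratio of Ikzf2-high to ILC1-type cells was 56.4 (19.2 to 274). All 196 cells had a UMI of at least 1 constant gene of any receptor chain, 96.9% after each cell was thinned to 2000 UMI. That share alone separates little, because 96.0% of ILC1-type and 82.0% of NK-type cells also had such a UMI, mostly of Trbc1 and Trbc2, and 6.33% of B cells did at a median of 3297 UMI.

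Gamma chain constant genes were much more frequent in Ikzf2-high cells than in Gzmb+ CD8 T cells. A UMI of any Tcrg-C gene was found in 59.2% of Ikzf2-high cells, 9.56% of Gzmb+ CD8 T cells, 49.7% of Zbtb16+ T cells, 38.7% of ILC1-type cells and 0.266% of B cells. Thinned to 2000 UMI, the shares were 35.7% in Ikzf2-high cells, 4.26% in Gzmb+ CD8 T cells, 33.3% in Zbtb16+ T cells and 18.7% in ILC1-type cells. The order of the groups was the same at both depths.

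Tcrg-C2 stood at 144 CPM (124 to 168) in Ikzf2-high cells, against 24.2 CPM in Gzmb+ CD8 T cells, 65.9 CPM in Zbtb16+ T cells and 4.70 CPM in ILC1-type cells. The ratio was 5.96 (4.35 to 8.29) over Gzmb+ CD8 T cells and 2.19 (1.66 to 2.93) over Zbtb16+ T cells. It was the one gamma chain constant gene higher in Ikzf2-high cells than in Zbtb16+ T cells with an interval above 1. Tcrg-C1 stood at 74.7 CPM in Ikzf2-high cells and 111 CPM in Zbtb16+ T cells, a ratio of 0.675 (0.508 to 0.894). Tcrg-C4 stood at 65.6 CPM in Ikzf2-high cells and 65.0 CPM in Zbtb16+ T cells, but at 0.932 CPM, 2 UMI, in Gzmb+ CD8 T cells. The Tcrg-C genes are similar in sequence, so reads may be assigned wrongly between them or dropped.

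The variable segment Trgv2 went with Tcrg-C2. Trgv2 was found in 64 Ikzf2-high cells at 78.9 CPM, against 13.0 CPM in Gzmb+ CD8 T cells and 42.1 CPM in Zbtb16+ T cells. It was found in none of the 75 ILC1-type cells, which puts it at least 11.2-fold higher against the floor of 3 UMI. In the mm10 (GRCm38) annotation Trgv2 lies at chr13:19336573-19337167 and Tcrg-C2 at chr13:19304649-19307551, both on the minus strand. The other gamma variable genes, named Tcrg-V in the gene list, gave 24 UMI in Ikzf2-high cells together, against 95 of Trgv2.

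Trdc, the delta chain constant gene, was found in only 34 Ikzf2-high cells (17.3%), and in those it was abundant, with a median of 5.5 UMI and 26 cells at 4 or more. It stood at 166 CPM in Ikzf2-high cells, against 6.99 CPM in Gzmb+ CD8 T cells, 111 CPM in Zbtb16+ T cells and 7.05 CPM in ILC1-type cells. Of these 34 cells, 24 had no Trac UMI and 30 had a Tcrg-C UMI. Of the 162 cells without Trdc, 29 had no Trac UMI and 86 still had a Tcrg-C UMI. Gamma chain RNA was therefore also common in cells without delta chain RNA.

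Variable segments were sparse. Alpha chain segments gave 41 UMI over 12 of 128 genes in Ikzf2-high cells, led by Trav5-4 with 19. In Zbtb16+ T cells they gave 34 UMI, led by Trav11 with 20, the segment of the invariant natural killer T cell receptor in mice. Trav11 had 0 UMI in Ikzf2-high cells.

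**Figure D1:**
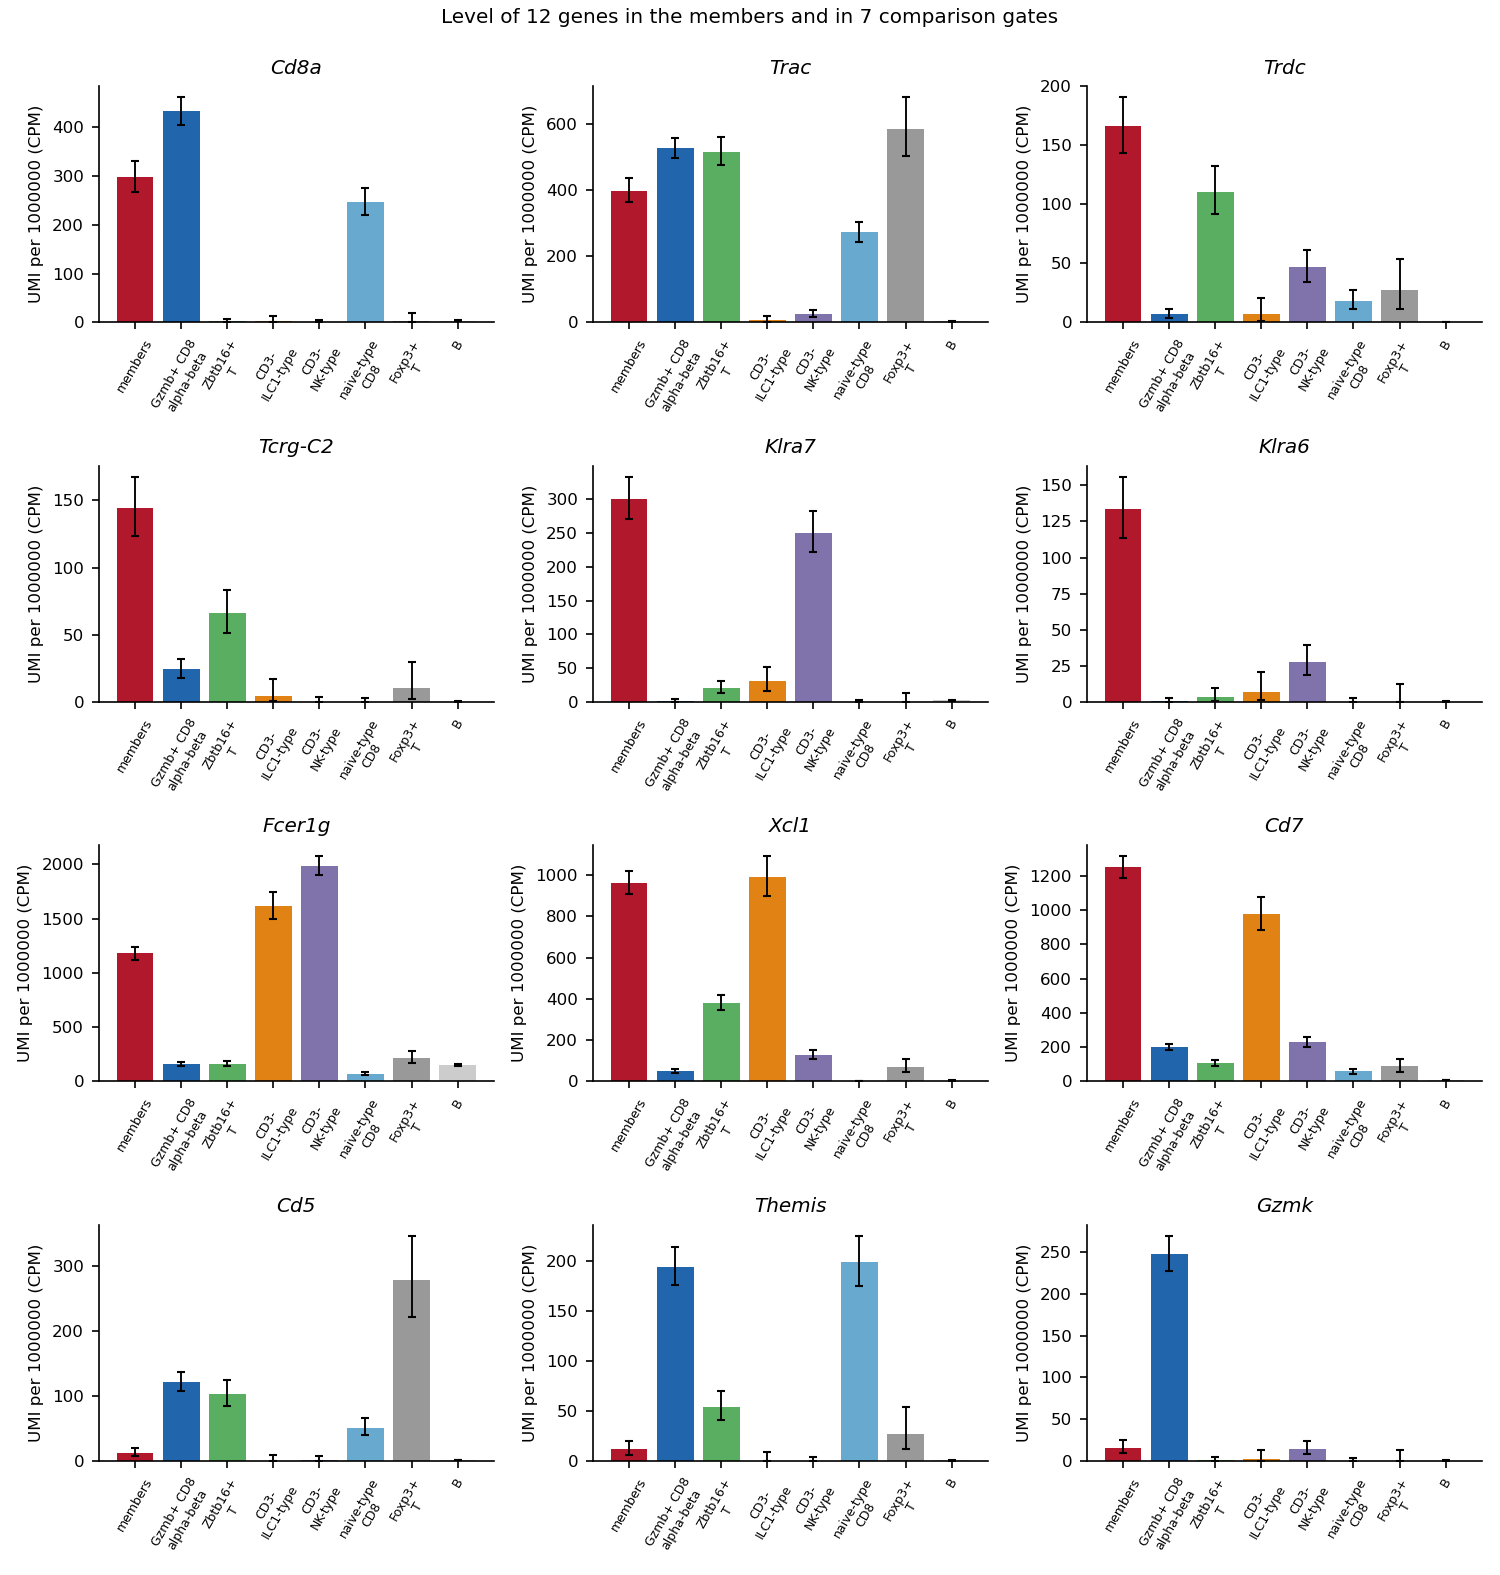
Level of 12 genes in summed UMI per 1000000 (CPM, vertical axes from 0) in Ikzf2-high cells (members, leftmost bar) and 7 other groups of the same matrix; error bars are exact 95% Poisson intervals for counting error. Klra6 and Xcl1 separate the members from Gzmb+ CD8 T cells (134 and 961 CPM against 0.466 and 52.2 CPM), and Cd5, Themis and Gzmk are high in Gzmb+ CD8 T cells and low in the members.

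Among coreceptors, the cells held the alpha chain of CD8 with no beta chain by rule. Cd8a stood at 297 CPM (267 to 330), with at most 19 UMI in 1 cell and 39 cells at 4 UMI or more. It stood at 431 CPM in Gzmb+ CD8 T cells, 2.74 CPM in Zbtb16+ T cells and 2.35 CPM (1 UMI) in ILC1-type cells. Thinned to 2000 UMI, Cd8a was found in 33.7% of Ikzf2-high cells, against 0.546% of B cells (0.932% before thinning). Coreceptor alpha chain RNA in these cells was thus far above the level in B cells and in the other groups without Cd8b1. Cd8a lies at chr6:71373427-71379173 and Cd8b1 at chr6:71322788-71337494 in mm10.

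Of 8 coreceptor and adhesion genes outside the rule, 1 was at least 2-fold higher and 4 lower than in Gzmb+ CD8 T cells, with a median of -0.94. Over Zbtb16+ T cells 2 of 8 were higher and 4 lower (median -0.72), and over ILC1-type cells 1 of 6 was higher and none lower (median 0.19). Cd5, which dampens receptor signalling, was found in 5.10% of Ikzf2-high cells at 12.5 CPM, against 122 CPM in Gzmb+ CD8 T cells and 103 CPM in Zbtb16+ T cells. The ratios were 0.102 (0.0565 to 0.172) and 0.120 (0.0653 to 0.207). Its relative Cd6 stood at 17.4 CPM in Ikzf2-high cells, 201 CPM in Gzmb+ CD8 T cells and 120 CPM in Zbtb16+ T cells. Themis, needed for thymocyte selection, stood at 11.6 CPM in Ikzf2-high cells and 194 CPM in Gzmb+ CD8 T cells, a ratio of 0.0598 (0.0324 to 0.102). These 3 genes were absent (0 UMI) from ILC1-type cells, where the floor of 3 UMI is 7.05 CPM. In Ikzf2-high cells the intervals of Cd5 (6.97 to 20.5) and Themis (6.35 to 19.5) reached that floor, and that of Cd6 (10.8 to 26.6) lay above it. So only for Cd6 did the Ikzf2-high cells clearly lie between the T cell groups and the ILC1-type cells. In the 97 cells that met every criterion but Gzmb, Cd5, Cd6 and Themis stood at 79.6, 93.9 and 86.0 CPM. Their low levels were thus not shared by all cells with Ikzf2 RNA.

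Cd7, an immunoglobulin-family receptor of T and NK cells, went the other way. It was found in 82.1% of Ikzf2-high cells at 1249 CPM, against 200 CPM in Gzmb+ CD8 T cells, 106 CPM in Zbtb16+ T cells and 975 CPM in ILC1-type cells. The ratio was 6.25 (5.61 to 6.98) over Gzmb+ CD8 T cells and 11.8 (9.74 to 14.3) over Zbtb16+ T cells. Thy1 stood at 171 CPM in Ikzf2-high cells and 389 CPM in Gzmb+ CD8 T cells, and the costimulatory receptor Cd28 at 173 and 416 CPM in the same order.

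**Figure D2:**
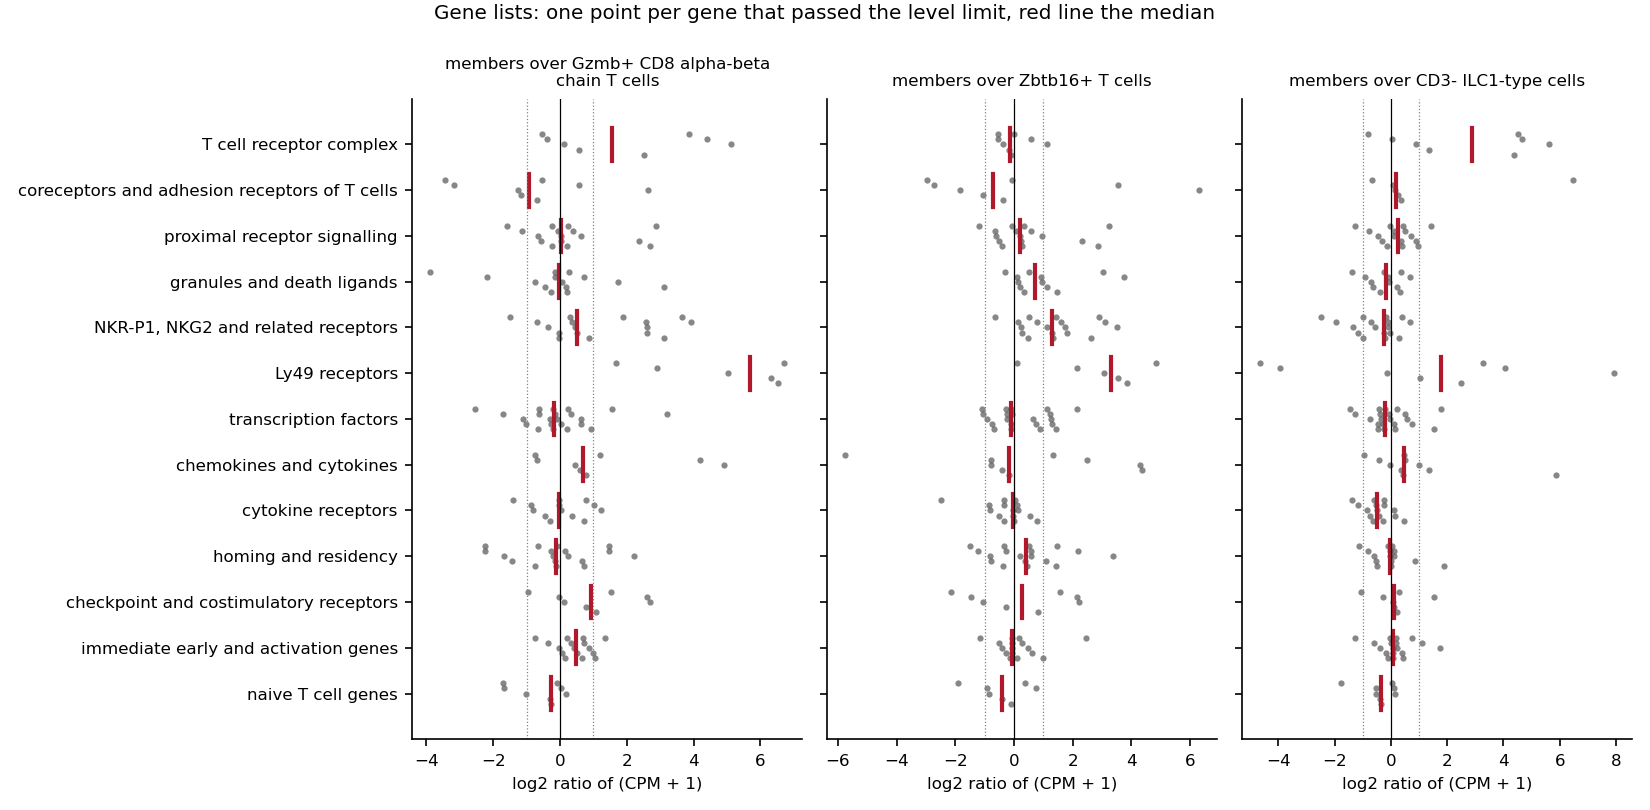
Log2 ratio of Ikzf2-high cells (members) over Gzmb+ CD8 T cells, Zbtb16+ T cells and CD3- ILC1-type cells (horizontal axes, 1 CPM added) for genes of 13 lists; each point is a gene of at least 20 CPM on average, the red line is the list's median, and dotted lines mark 2-fold. The Ly49 list has medians of 5.68, 3.29 and 1.76, which are partly set by the 20 CPM limit.

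Ly49 receptors, encoded by Klra genes in a cluster on chromosome 6, had the highest list median over both T cell groups compared. They are C-type lectin receptors of mouse NK cells, most of them inhibitory and specific for MHC class I. Of 12 listed genes 11 were in the gene list. Over Gzmb+ CD8 T cells 6 of the 6 that reached 20 CPM were at least 2-fold higher, with a median log2 ratio of 5.68 (3.23% of all genes were that much higher). Over Zbtb16+ T cells 5 of 6 were, with a median of 3.29 (3.43% of all genes were). Over ILC1-type cells 5 of 8 were at least 2-fold higher and 2 lower, with a median of 1.76. Of all genes, 2.14% were that much higher and 7.04% lower. In the comparison with Gzmb+ CD8 T cells, Klra1, Klra5, Klra6 and Klra7 reached the limit only through the Ikzf2-high cells. The same held for Klra6 over Zbtb16+ T cells, and for Klra5 and Klra6 over ILC1-type cells. In these comparisons such genes could count only as higher, and the shares called and the medians are partly set by the limit. The genes are close paralogs, so the counts of single members are uncertain where reads match several.

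Klra7 was found in 93 Ikzf2-high cells (47.4%) at 300 CPM (270 to 333), with at most 17 UMI in a cell. It stood at 1.86 CPM in Gzmb+ CD8 T cells, 20.1 CPM in Zbtb16+ T cells, 30.6 CPM in ILC1-type cells and 251 CPM in NK-type cells. The ratio over Gzmb+ CD8 T cells was 161 (62.4 to 595), and over NK-type cells 1.20 (1.02 to 1.41). For Klra7 the Ikzf2-high cells were thus close to NK-type cells and far from both T cell groups compared.

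Klra6 stood at 134 CPM in 38.3% of Ikzf2-high cells, against 0.466 CPM (1 UMI) in Gzmb+ CD8 T cells, 3.66 CPM in Zbtb16+ T cells, 7.05 CPM in ILC1-type cells and 27.6 CPM in NK-type cells. Its ratio over NK-type cells was 4.84 (3.24 to 7.46). Klra5 stood at 244 CPM in 32.1% of Ikzf2-high cells, 6.52 CPM in Gzmb+ CD8 T cells and 8.57 CPM in NK-type cells, a ratio of 28.5 (14.8 to 62.9) over NK-type cells. Klra5 had 0 UMI in ILC1-type cells, so it was at least 34.6-fold higher in Ikzf2-high cells against the floor of 3 UMI. Klra6 and Klra5 were therefore higher in Ikzf2-high cells than in the other groups plotted, NK-type cells included. Klra5 was also found in cells without Ikzf2 RNA, and stood at 180 CPM (159 to 202) in the 313 cells with 0 Ikzf2 UMI that met every other criterion of the rule.

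Klra1 stood at 192 CPM in Ikzf2-high cells, 1.40 CPM (3 UMI) in Gzmb+ CD8 T cells and 110 CPM in NK-type cells, and Klra9 at 220 CPM in Ikzf2-high cells, 67.5 CPM in Gzmb+ CD8 T cells and 338 CPM in NK-type cells. The activating receptor genes Klra4 and Klra8 were nearly missing. Klra4 had 2 UMI in 1 cell (1.66 CPM) in Ikzf2-high cells, against 685 CPM in NK-type cells. Klra8, whose product binds a cytomegalovirus protein, stood at 6.64 CPM in Ikzf2-high cells, with 87.5% of it in 1 cell, against 588 CPM in NK-type cells. The set of Ly49 genes in Ikzf2-high cells thus differed from that in NK-type cells by these counts.

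At least 1 of Klra1, Klra5, Klra6 and Klra7 gave a UMI in 77.0% of Ikzf2-high cells (70.5 to 82.7), 2.33% of Gzmb+ CD8 T cells, 12% of Zbtb16+ T cells, 9.33% of ILC1-type cells, 56.9% of NK-type cells and 1.27% of B cells. Thinned to 2000 UMI, the shares were 66.3% in Ikzf2-high cells, 46.2% in NK-type cells and 0.546% in B cells. Per cell, 29 Ikzf2-high cells had no Ly49 gene, 41 had 1, 59 had 2, 43 had 3 and 24 had 4 or more. Klra6 and Klra7, which can share reads, were often in the same cells. Klra7 was found in 55 of the 75 cells with Klra6 (73.3%), against 38 of the 121 without it (31.4%).

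**Figure D3:**
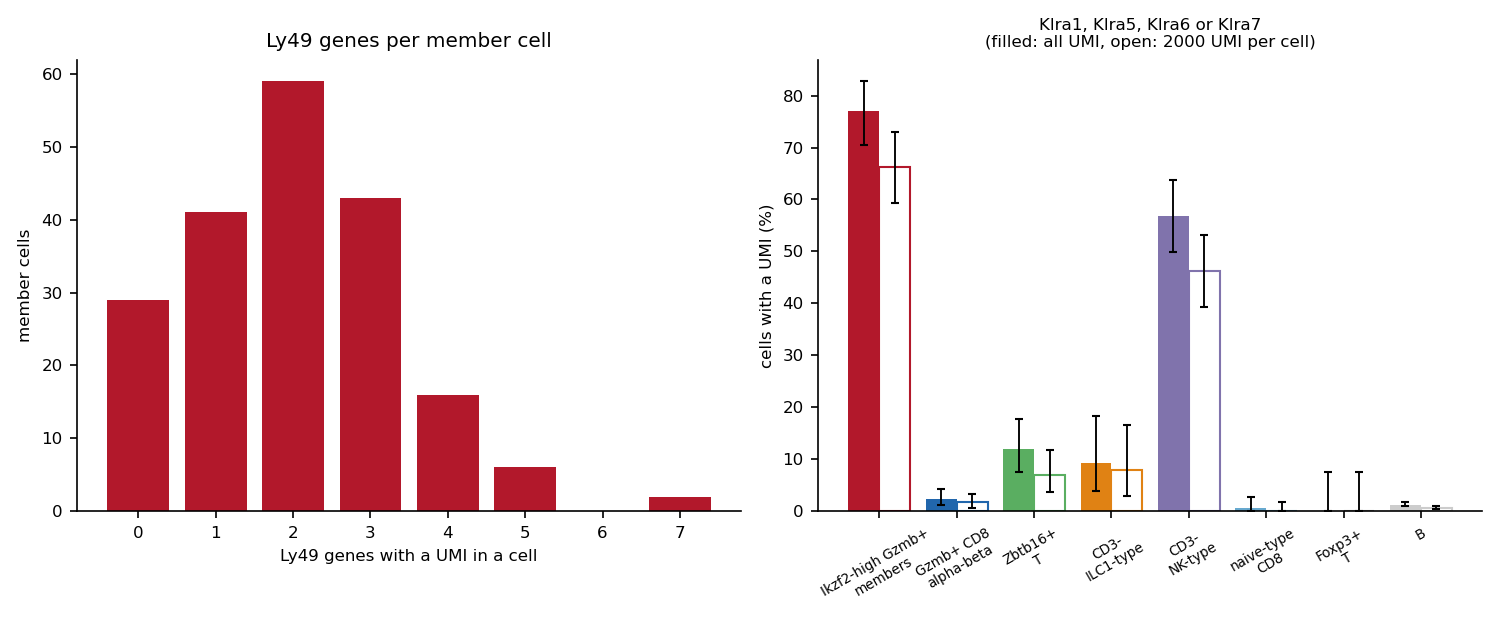
Left, number of Ikzf2-high cells (members, vertical axis) by how many Ly49 genes gave a UMI (horizontal axis); the peak is 59 cells with 2 genes. Right, percent of cells with a UMI of Klra1, Klra5, Klra6 or Klra7 in each group, all UMI (filled) and 2000 UMI per cell (open), with exact 95% binomial intervals; Ikzf2-high cells stand at 77.0% and NK-type cells at 56.9% with all UMI.

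Other NK receptor genes were higher than in T cells for several genes of their list. Of the list of NKR-P1, NKG2 and related receptors, 7 of 17 genes were at least 2-fold higher and 1 lower than in Gzmb+ CD8 T cells. Over Zbtb16+ T cells 11 of 18 were higher and none lower, and over ILC1-type cells none of 17 was higher and 4 were lower. The medians were 0.52, 1.30 and -0.24. Of all genes, 3.23%, 3.43% and 2.14% were that much higher in these comparisons, and 7.04% were lower than in ILC1-type cells. Zbtb16+ T cells were not chosen for Gzmb. With no Gzmb criterion, the log2 ratios of Klrd1 and Klrk1 over them fell from 1.29 and 1.11 to 0.91 and 0.68. How far the Gzmb criterion adds to the count over Zbtb16+ T cells was not tested.

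Klrb1c, the gene of the NK1.1 antigen, was found in 56.6% of Ikzf2-high cells at 227 CPM, against 25.6 CPM in Gzmb+ CD8 T cells, 188 CPM in Zbtb16+ T cells and 449 CPM in ILC1-type cells. The ratio over Gzmb+ CD8 T cells was 8.88 (6.62 to 12.1). Cd244, a receptor for Cd48, stood at 145 CPM in Ikzf2-high cells, 23.3 CPM in Gzmb+ CD8 T cells, 11.9 CPM in Zbtb16+ T cells and 120 CPM in ILC1-type cells. Cd160, a receptor for MHC class I and Tnfrsf14, stood at 349 CPM in Ikzf2-high cells, 94.6 CPM in Gzmb+ CD8 T cells, 140 CPM in Zbtb16+ T cells, 263 CPM in ILC1-type cells and 46.7 CPM in NK-type cells. Cd160 was thus also higher than in NK-type cells, with a ratio of 7.49 (5.56 to 10.3).

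Klrd1 (CD94) and Klrk1 (NKG2D) differed by less than 2-fold from Gzmb+ CD8 T cells, at 591 and 561 CPM in Ikzf2-high cells against 413 and 408 CPM. Klrg1, a receptor of terminal effector T cells, was lower, at 54.8 CPM in Ikzf2-high cells and 155 CPM in Gzmb+ CD8 T cells, a ratio of 0.353 (0.267 to 0.461). Ncr1, the gene of NKp46, was found in 38 Ikzf2-high cells at 66.4 CPM, against 10.2 CPM in Gzmb+ CD8 T cells and 10.1 CPM in Zbtb16+ T cells. Klrb1b stood at 81.3 CPM in Ikzf2-high cells and 463 CPM in ILC1-type cells.

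Adaptor chains of NK receptors were high. Fcer1g, an adaptor with an activation motif that pairs with NK and Fc receptors, was found in 85.2% of Ikzf2-high cells at 1179 CPM. It stood at 160 CPM in Gzmb+ CD8 T cells, 162 CPM in Zbtb16+ T cells and 1617 CPM in ILC1-type cells. The ratio was 7.36 (6.53 to 8.30) over Gzmb+ CD8 T cells and 0.729 (0.665 to 0.800) over ILC1-type cells. Fcer1g was found in 77.0% of Ikzf2-high cells and 6.45% of B cells after thinning to 2000 UMI (9.76% of B cells before), and B cells held 153 CPM, close to the level in both T cell groups. The high Fcer1g level was thus found in most of the Ikzf2-high cells, not in a few.

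Tyrobp, the partner chain of activating NK receptors, stood at 1019 CPM in Ikzf2-high cells, 196 CPM in Gzmb+ CD8 T cells, 205 CPM in Zbtb16+ T cells and 1763 CPM in ILC1-type cells. Lat2, an adaptor of B, myeloid and NK cells, stood at 103 CPM in Ikzf2-high cells, 14.9 CPM in Gzmb+ CD8 T cells and 10.1 CPM in Zbtb16+ T cells. Its T cell counterpart Lat stood at 148 CPM in Ikzf2-high cells and 328 CPM in Gzmb+ CD8 T cells, a ratio of 0.450 (0.380 to 0.531). Lat2 and Lat thus went in opposite directions. In the whole list of 16 proximal signalling genes, 3 were at least 2-fold higher and 2 lower than in Gzmb+ CD8 T cells, with a median log2 ratio of 0.04. In the comparison with Zbtb16+ T cells 3 were higher and 1 lower (median 0.22), and over ILC1-type cells 1 was higher and 1 lower (median 0.23).

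**Figure D4:**
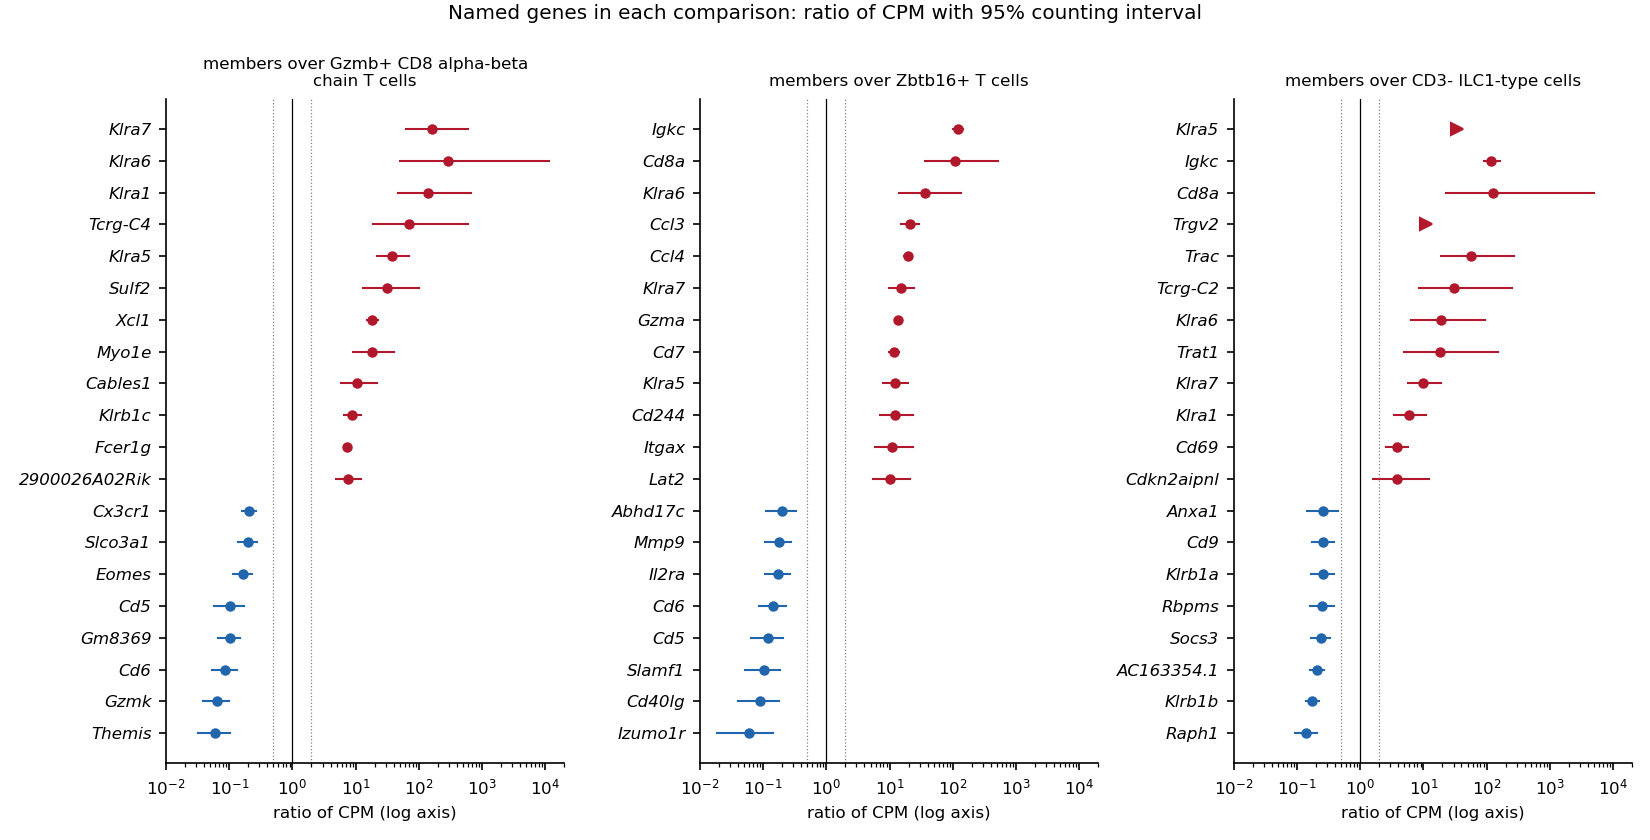
Ratio of CPM (horizontal log axes) of Ikzf2-high cells (members) over Gzmb+ CD8 T cells, Zbtb16+ T cells and CD3- ILC1-type cells for the 12 highest and 8 lowest genes of each comparison that were found in at least 25% of the cells of the higher group. Lines are exact 95% counting intervals, triangles are lower bounds where the other group had 0 UMI, and dotted lines mark 2-fold; Igkc rests on 2 cells.

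Granule and death ligand genes differed from Gzmb+ CD8 T cells in both directions. Gzmb itself was used by the rule. Of 14 others, 2 were at least 2-fold higher and 2 lower (14.3% each way, against 3.23% and 1.95% of all genes), with a median of -0.04, against Zbtb16+ T cells 4 of 12 were higher and none lower (median 0.72), and against ILC1-type cells none of 12 was higher and 1 was lower (median -0.18). Gzma, a granzyme with tryptase activity, stood at 4890 CPM in Ikzf2-high cells, 5403 CPM in Gzmb+ CD8 T cells, 362 CPM in Zbtb16+ T cells and 3039 CPM in ILC1-type cells. The ratio over Zbtb16+ T cells, which were not chosen for Gzmb, was 13.5, with a lower limit of 12.2. Prf1, the pore-forming perforin, stood at 154 CPM in Ikzf2-high cells, 259 CPM in Gzmb+ CD8 T cells, 409 CPM in ILC1-type cells and 1211 CPM in NK-type cells.

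Gzmk, a granzyme of memory CD8 T cells, stood at 15.8 CPM in Ikzf2-high cells and 247 CPM in Gzmb+ CD8 T cells, a ratio of 0.0638 (0.0381 to 0.101). Tnfsf10, the gene of the death ligand TRAIL, stood at 95.5 CPM in Ikzf2-high cells, 28.0 CPM in Gzmb+ CD8 T cells, 125 CPM in ILC1-type cells and 4.76 CPM in NK-type cells. Low Gzmk and higher Tnfsf10 set them apart from Gzmb+ CD8 T cells, while Nkg7, a granule membrane protein, stood at 1425 CPM in Ikzf2-high cells and 1737 CPM in Gzmb+ CD8 T cells. Gzmc stood at 51.5 CPM in Ikzf2-high cells and 5.12 CPM in Gzmb+ CD8 T cells, with 37.1% of its UMI in 1 cell.

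Several chemokine genes were higher than in the T cell groups. Xcl1, which attracts cross-presenting dendritic cells, was found in 65.8% of Ikzf2-high cells at 961 CPM, against 52.2 CPM in Gzmb+ CD8 T cells, 381 CPM in Zbtb16+ T cells, 992 CPM in ILC1-type cells and 130 CPM in NK-type cells. The ratio over Gzmb+ CD8 T cells was 18.4 (15.2 to 22.6), and over ILC1-type cells 0.969 (0.866 to 1.09). Zbtb16+ T cells were not chosen for Gzmb, and with no Gzmb criterion the log2 ratio of Xcl1 over them fell from 1.33 to 0.91. Xcl1 also stood at 743 CPM in the 313 cells with 0 Ikzf2 UMI that met every other criterion. Ccl4, an inflammatory chemokine, stood at 4095 CPM in Ikzf2-high cells, 2383 CPM in Gzmb+ CD8 T cells, 209 CPM in Zbtb16+ T cells and 2052 CPM in ILC1-type cells. Ccl3, its relative, stood at 839 CPM in Ikzf2-high cells, 366 CPM in Gzmb+ CD8 T cells, 40.3 CPM in Zbtb16+ T cells and 327 CPM in ILC1-type cells.

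Ccl5, a chemokine of effector cells, was lower than in Gzmb+ CD8 T cells, at 14145 CPM in Ikzf2-high cells and 23571 CPM in Gzmb+ CD8 T cells. Ifng stood at 157 CPM in Ikzf2-high cells, 253 CPM in Gzmb+ CD8 T cells and 209 CPM in Zbtb16+ T cells. Il4 had 0 UMI in Ikzf2-high cells and 53.1 CPM in Zbtb16+ T cells, so it was at least 21.3-fold lower against the floor of 3 UMI. Il17a stood at 57.3 CPM in Ikzf2-high cells, and all of it came from 7 cells. Of the chemokine and cytokine list, 3 of 8 genes were at least 2-fold higher than in Gzmb+ CD8 T cells, 4 of 9 higher and 1 lower than in Zbtb16+ T cells, and 2 of 10 higher than in ILC1-type cells, with medians of 0.69, -0.18 and 0.45.

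Among transcription factors, Eomes was low and Tox and Zbtb16 were higher than in Gzmb+ CD8 T cells. Eomes, a T-box factor of NK and memory CD8 T cells, was found in 8.67% of Ikzf2-high cells at 30.7 CPM, against 185 CPM in Gzmb+ CD8 T cells and 447 CPM in NK-type cells, which were chosen by it. The ratio over Gzmb+ CD8 T cells was 0.166 (0.115 to 0.233). Its relative Tbx21 did not differ beyond counting error, at 80.5 CPM in Ikzf2-high cells and 79.7 CPM in Gzmb+ CD8 T cells, a ratio of 1.01 (0.780 to 1.30). Of these 2 related factors, Eomes was thus the one that was lower.

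Tox, a factor of CD8 and innate lymphocyte development, stood at 108 CPM in Ikzf2-high cells, 35.9 CPM in Gzmb+ CD8 T cells, 43.9 CPM in Zbtb16+ T cells and 150 CPM in ILC1-type cells. Zbtb16, which drives innate-like T cells, stood at 42.3 CPM in 14.3% of Ikzf2-high cells and 3.73 CPM in Gzmb+ CD8 T cells, and Zbtb16+ T cells were chosen by it. Bcl11b, a T cell identity factor, stood at 157 CPM in Ikzf2-high cells, 339 CPM in Gzmb+ CD8 T cells, 252 CPM in Zbtb16+ T cells and 44.7 CPM in ILC1-type cells. For Bcl11b, as for Cd6, the Ikzf2-high cells lay between the T cell groups and the ILC1-type cells. Of the 22 factors compared with Gzmb+ CD8 T cells, 2 were at least 2-fold higher and 4 lower, with a median of -0.18. Against Zbtb16+ T cells 6 of 21 were higher and 2 lower (median -0.09), and over ILC1-type cells 2 of 21 were higher and 2 lower (median -0.23).

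Among homing genes, Itga1 and Rgs1 were higher, and S1pr1 and Cx3cr1 lower, than in Gzmb+ CD8 T cells. Itga1, the collagen-binding integrin CD49a of resident lymphocytes, was found in 69.9% of Ikzf2-high cells at 325 CPM, against 116 CPM in Gzmb+ CD8 T cells and 118 CPM in Zbtb16+ T cells. Rgs1, a brake on chemokine receptors, stood at 2014 CPM in Ikzf2-high cells, 430 CPM in Gzmb+ CD8 T cells, 749 CPM in Zbtb16+ T cells and 1861 CPM in ILC1-type cells. The ratio over Gzmb+ CD8 T cells was 2.80 (2.38 to 3.29) for Itga1 and 4.69 (4.34 to 5.06) for Rgs1. S1pr1, the receptor for exit into blood and lymph, stood at 63.1 CPM in Ikzf2-high cells and 202 CPM in Gzmb+ CD8 T cells.

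Cx3cr1, a receptor of circulating effector cells, stood at 56.4 CPM in Ikzf2-high cells, 271 CPM in Gzmb+ CD8 T cells and 4.57 CPM in Zbtb16+ T cells. Cxcr6, which holds lymphocytes in liver sinusoids, stood at 175 CPM in Ikzf2-high cells, 107 CPM in Gzmb+ CD8 T cells and 495 CPM in Zbtb16+ T cells. Cd69 stood at 266 CPM in Ikzf2-high cells, 170 CPM in Gzmb+ CD8 T cells and 70.5 CPM in ILC1-type cells. Of the list, 3 of 18 genes were at least 2-fold higher and 4 lower than in Gzmb+ CD8 T cells, so the direction differed between its genes (median -0.13). Set against Zbtb16+ T cells 5 of 18 were higher and 2 lower (median 0.41), and over ILC1-type cells 1 of 15 was higher and 1 lower (median -0.02).

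Among cytokine receptors, Il2rb, the shared beta chain for interleukins 2 and 15, stood at 874 CPM in Ikzf2-high cells, 435 CPM in Gzmb+ CD8 T cells, 1097 CPM in Zbtb16+ T cells and 1584 CPM in ILC1-type cells. The ratio over Gzmb+ CD8 T cells was 2.01 (1.84 to 2.20). Il18rap, a receptor chain for interleukin 18, stood at 94.6 CPM in Ikzf2-high cells and 252 CPM in Gzmb+ CD8 T cells. Il2ra, the high-affinity chain for interleukin 2, stood at 20.8 CPM in Ikzf2-high cells and 121 CPM in Zbtb16+ T cells. The list had 2 of 13 genes higher and 1 lower than in Gzmb+ CD8 T cells, and none of 15 higher than in Zbtb16+ T cells or ILC1-type cells, where 1 and 2 were lower. The medians were -0.04, -0.05 and -0.49.

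Some checkpoint and costimulatory receptor genes were higher than in Gzmb+ CD8 T cells. Tnfrsf9, the costimulatory receptor 4-1BB, stood at 50.6 CPM in Ikzf2-high cells and 7.45 CPM in Gzmb+ CD8 T cells, a ratio of 6.79 (3.87 to 12.6). Cd200r1, an inhibitory receptor, stood at 41.5 CPM in Ikzf2-high cells and 5.59 CPM in Gzmb+ CD8 T cells. Icos, a relative of Cd28, stood at 139 CPM in Ikzf2-high cells, 142 CPM in Gzmb+ CD8 T cells and 622 CPM in Zbtb16+ T cells. In this list 4 of 8 genes were at least 2-fold higher than in Gzmb+ CD8 T cells and none lower, against Zbtb16+ T cells 3 were higher and 3 lower, and against ILC1-type cells 1 of 7 was higher and 1 lower. The medians were 0.93, 0.27 and 0.11. Of all genes, 3.23% were at least 2-fold higher than in Gzmb+ CD8 T cells. In that comparison Tnfrsf9 and Cd200r1 reached the mean of 20 CPM only through the Ikzf2-high cells and could count only as higher. The count and median over Gzmb+ CD8 T cells are thus partly set by the limit.

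Immediate early genes can rise during tissue digestion, and the labels give no control for it. In that list 2 of 16 genes were at least 2-fold higher than in Gzmb+ CD8 T cells (median 0.47), 1 higher and 1 lower of 16 than in Zbtb16+ T cells (median -0.07), and 2 higher and 1 lower of 18 than in ILC1-type cells (median 0.08). The orphan nuclear receptor Nr4a2 stood at 1052 CPM in Ikzf2-high cells, 527 CPM in Gzmb+ CD8 T cells and 191 CPM in Zbtb16+ T cells. Jun stood at 337 CPM in Ikzf2-high cells and 133 CPM in Gzmb+ CD8 T cells, with 21.4% of its UMI in 1 cell. None of 8 naive T cell genes was at least 2-fold higher and 3 were lower than in Gzmb+ CD8 T cells (median -0.28), and over Zbtb16+ T cells (median -0.41) and ILC1-type cells (median -0.37) none was higher and 1 was lower. Lef1, a factor of naive cells, stood at 44.0 CPM in Ikzf2-high cells and 147 CPM in Gzmb+ CD8 T cells.

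Some of the named genes lay outside the lists. Sulf2, an extracellular sulfatase, stood at 73.0 CPM in Ikzf2-high cells, 2.33 CPM in Gzmb+ CD8 T cells, 31.1 CPM in Zbtb16+ T cells and 115 CPM in ILC1-type cells. Myo1e, a motor of the membrane cytoskeleton, stood at 75.5 CPM in Ikzf2-high cells and 4.19 CPM in Gzmb+ CD8 T cells, a ratio of 18.0 (9.08 to 40.7). Cables1 stood at 59.8 CPM in Ikzf2-high cells and 5.59 CPM in Gzmb+ CD8 T cells. Lower than in Gzmb+ CD8 T cells were Slco3a1, a solute carrier, at 33.2 CPM in Ikzf2-high cells against 169 CPM, and Gm8369 at 23.2 CPM against 229 CPM.

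Genes lower than in Zbtb16+ T cells included a ligand of helper T cells. Cells with Cd4 were allowed among the Zbtb16+ T cells only, and how far this adds to the differences was not tested. Cd40lg, the ligand that activates B cells and macrophages, stood at 7.47 CPM in Ikzf2-high cells and 82.3 CPM in Zbtb16+ T cells, a ratio of 0.0907 (0.0402 to 0.180). Slamf1 stood at 9.96 CPM in Ikzf2-high cells and 97.9 CPM in Zbtb16+ T cells, and Izumo1r, a folate receptor relative, at 4.15 and 70.4 CPM in the same order. The integrin gene Itgax (CD11c) was higher, at 101 CPM in Ikzf2-high cells and 9.15 CPM in Zbtb16+ T cells, a ratio of 11.1 (5.82 to 23.7).

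Against ILC1-type cells, T cell genes were among the highest ratios. Trat1, an adaptor that stabilises the T cell receptor, stood at 84.7 CPM in Ikzf2-high cells and 4.70 CPM (2 UMI) in ILC1-type cells. It was also above Gzmb+ CD8 T cells, at 21.4 CPM, a ratio of 3.95 (2.76 to 5.73). Lower were Raph1, a regulator of actin, at 30.7 CPM in Ikzf2-high cells against 219 CPM in ILC1-type cells, and Socs3, an inhibitor of cytokine signalling, at 44.8 CPM against 190 CPM.

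The threshold on Ikzf2 could be read from cells that met every other criterion, of which 313 had 0 Ikzf2 UMI, 82 had 1, 43 had 2, 30 had 3 and 123 had 4 or more. Median depths were close, at 4688, 4621.5, 4932, 4908 and 5003 UMI. Cd8a stood at 54.1, 122, 73.6, 226 and 374 CPM in these 5 groups, and was found in 62.6% of the cells at 4 UMI or more, against 22.0% at 1 UMI. Klra7 stood at 88.9, 90.4, 165, 245 and 350 CPM. Between 1 and 2 UMI, where the threshold lies, the intervals of Cd8a overlapped, and the highest levels were at 4 UMI or more.

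Cd5 was lower in cells with more Ikzf2, at 72.1, 40.7, 43.3, 6.27 and 4.91 CPM. Tcrg-C2 stood at 41.9, 111, 104, 113 and 162 CPM. Klra6 stood at 12.9 CPM at 0 Ikzf2 UMI and 171 CPM at 4 or more. Klra5 had no single direction, at 180, 174, 347, 144 and 235 CPM. Fcer1g was level in summed CPM, at 1175, 1125, 1222, 1079 and 1186 CPM, but was found in 60.4%, 73.2%, 79.1%, 76.7% and 89.4% of the cells. Trdc had no single direction, at 120, 255, 225, 307 and 122 CPM, so the cells with the most Ikzf2 were not those with the most delta chain RNA. Tyrobp stood at 1331 CPM in the 313 cells with 0 Ikzf2 UMI, Klrb1c at 302 CPM and Gzma at 5794 CPM, against 1019, 227 and 4890 CPM in the 196. Xcl1 stood at 743 CPM in the 313, Cd7 at 890 CPM, Itga1 at 236 CPM and Cd160 at 206 CPM, against 961, 1249, 325 and 349 CPM. These genes were thus not particular to cells with Ikzf2 RNA.

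**Figure D5:**
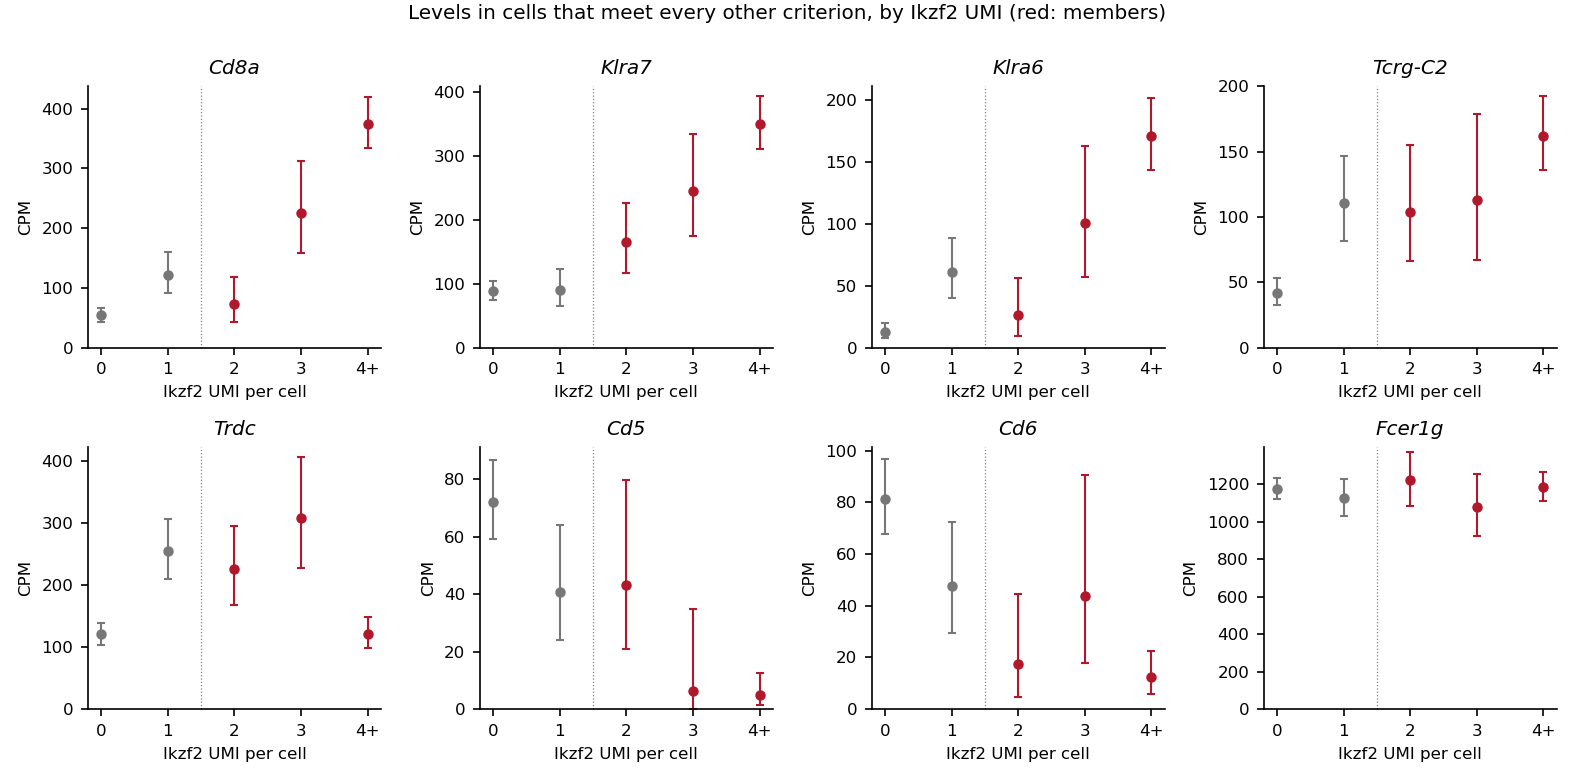
CPM (vertical axes from 0) of 8 genes in cells that met every other criterion, by Ikzf2 UMI per cell (horizontal axes), with exact 95% Poisson intervals; red points from 2 UMI on are members and the dotted line is the threshold. Cd8a reaches 374 CPM and Cd5 4.91 CPM at 4 UMI or more, while the summed Fcer1g level stays between 1079 and 1222 CPM.

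The Gzmb criterion, with Ikzf2 at 2 UMI or more, divided 97 cells with 0 Gzmb UMI from 19 with 1, 12 with 2 and 165 with 3 or more. Gzma stood at 181, 1253, 1808 and 5540 CPM in these groups, Fcer1g at 202, 315, 675 and 1315 CPM and Cd7 at 261, 490, 560 and 1388 CPM. Klra5 stood at 1.59, 26.3, 38.2 and 285 CPM. At 0 and at 3 or more Gzmb UMI, Klrb1c stood at 92.3 and 246 CPM. Cd160 stood at 116 and 388 CPM and Xcl1 at 242 and 1094 CPM. The cells without Gzmb RNA thus held less of each of these genes, and Klra5 was at 1 UMI in them. Cd5, Cd6 and Themis went the other way, at 79.6, 93.9 and 86.0 CPM with 0 Gzmb UMI. With 3 or more they stood at 8.89, 7.91 and 10.9 CPM. Low levels of these 3 genes thus went with Gzmb RNA among cells with 2 or more Ikzf2 UMI. Cd8b1 had 1 UMI in only 4 and 2 or more in 15 cells that met all else. Themis stood at 11.6 CPM in the 196, against 152 CPM (95.5 to 231) in the 15, and Klra5 at 244 against 27.7 CPM (7.55 to 71.0). Other genes were close, with Klra7 at 300 CPM in the 196 and 236 CPM (163 to 329) in the 15, Klra1 at 192 and 194 CPM, and Tcrg-C2 at 144 and 152 CPM. The median depth was 4945.5 UMI in the 196 and 8924 UMI in the 15.

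The Ikzf2-high cells were not alike. Cd8a gave the first division, into 93 cells with and 103 without a UMI. Among the 196, 107 of 5795 genes were at least 2-fold higher with Cd8a (1.85%) and 327 lower (5.64%), but Igkc, Apoe and Cd74 of a few very large barcodes led. In a restriction added after the data were seen, to barcodes of 2000 to 20000 UMI, 144 of 5654 were higher (2.55%) and 187 lower (3.31%) in 90 cells with Cd8a over 100 without. Median depth was 4878.5 UMI with and 4933 UMI without Cd8a. The values that follow are from the restricted cells.

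With Cd8a, Klra6 stood at 207 CPM against 87.9 CPM without it, a ratio of 2.35 (1.65 to 3.40), and Klra7 at 483 against 209 CPM, a ratio of 2.31 (1.83 to 2.91). Trac stood at 602 CPM with and 297 CPM without Cd8a, and Trgv2 at 124 and 56.1 CPM. Trat1 stood at 140 CPM with and 52.3 CPM without Cd8a. Lower with Cd8a were the chemokine receptor Ccr2, at 34.5 against 181 CPM, Icos at 60.8 against 254 CPM, and the NKG2A gene Klrc1 at 184.6 against 490 CPM. Fcer1g and Xcl1 were nearly level in summed CPM, at 1306 and 1040 CPM with Cd8a against 1148 and 1097 CPM without. Among all 196, however, Fcer1g was found in 94.6% of cells with Cd8a (87.9 to 98.2) against 76.7% without (67.3 to 84.5), and Xcl1 in 73.1% against 59.2%. The Cd8a+ cells thus held more alpha chain RNA and Klra6 and Klra7, and less Ccr2, Icos and Klrc1.

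The second division was by Trdc, with 34 cells against the 162 without Trdc, all of which had Trac or Trbc. In all of them 339 of 5769 genes were at least 2-fold higher with Trdc (5.88%) and 325 lower (5.63%), and in barcodes of 2000 to 20000 UMI, 346 of 5673 were higher (6.10%) and 279 lower (4.92%), over 33 and 157 cells. In the restricted cells Tcrg-C1 stood at 265 CPM with and 45.3 CPM without Trdc, a ratio of 5.84 (3.75 to 9.15). Blk, a Src-family kinase, stood at 122 CPM in 9 of 33 cells with Trdc, and at 1.19 CPM (1 UMI) without it, a ratio of 102 with a lower limit of 16.6. S100a4, a calcium-binding protein of effector cells, stood at 1534 CPM with and 212 CPM without Trdc, in 81.8% and 33.1% of cells. Higher Blk and Tcrg-C1 therefore went with delta chain RNA.

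Il17a, the gene of the cytokine interleukin 17A, appeared in a few of these cells. It stood at 365 CPM in cells with Trdc, all in 7 of 33 cells, and at 0 without, at least 102-fold higher against the floor of 3 UMI. Ccr2 stood at 333 CPM with and 60.8 CPM without Trdc, and Il7r at 529 and 138 CPM. Lower with Trdc were Zeb2, a factor of terminal effector cells, at 42.3 against 269 CPM, and Klra1 and Klra7, at 47.6 and 111 against 259 and 392 CPM. Cd7 and Ccl4 did not differ beyond counting error, at 1354 and 4487 CPM with Trdc against 1395 and 4579 CPM without.

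Tcrg-C2 gave the third division, with 81 cells against 115. In all of them 143 of 5783 genes were at least 2-fold higher with Tcrg-C2 (2.47%) and 264 lower (4.57%). In barcodes of 2000 to 20000 UMI, 149 of 5657 were higher (2.63%) and 152 lower (2.69%), over 78 and 112 cells. In the restricted cells Trgv2 stood at 169 CPM with and 33.0 CPM without Tcrg-C2, a ratio of 5.11 (3.08 to 8.87), and Cd8a at 484 and 242 CPM, a ratio of 2.0 (1.61 to 2.49). Ncr1 stood at 28.5 CPM with and 102 CPM without Tcrg-C2, and Gzma at 3711 and 6874 CPM. Cells with Tcrg-C2 thus held more Cd8a and Trgv2 and less Ncr1.

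Among all 196, 38 cells had Ncr1. Trac was found in 42.1% of them against 80.4% of the 158 without Ncr1, Tyrobp in 97.4% against 64.6%, and Klrb1c in 92.1% against 48.1%. Cells with Ncr1 thus held alpha chain RNA less often and these NK cell genes more often, although all were chosen for CD3 RNA.

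When all kept barcodes were clustered without the 12 genes of the rule, 124 of the 196 cells (63.3%, 56.1 to 70.0) fell in 1 cluster of 236 cells. It held 3 of the 429 Gzmb+ CD8 T cells and none of the Zbtb16+ T cells, ILC1-type cells or NK-type cells. Another 21 were in the cluster that held 54 of 75 ILC1-type cells, 17 in the one that held 141 of 175 Zbtb16+ T cells, and 7 in the one that held 198 of 211 NK-type cells. Of Gzmb+ CD8 T cells, 373 of 429 shared a cluster with 5 Ikzf2-high cells. At this resolution most Ikzf2-high cells thus shared 1 cluster, and the rest were spread over 15 others. At resolution 0.5 the separation from ILC1-type cells was lost: the main cluster of 467 cells held 141 Ikzf2-high cells (30.2% of it) and 54 of the 75 ILC1-type cells.

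The 124 in the main cluster were the Cd8a-rich ones. Cd8a stood at 522 CPM in them and 55.2 CPM in the other 72, Klra7 at 509 and 75.8 CPM, and Trac at 572 and 210 CPM. Ncr1 stood at 38.4 CPM in the 124 and 96.5 CPM in the other 72, and Trdc at 149 and 184 CPM. All 6 Ikzf2-high barcodes over 20000 UMI were among the other 72. The clusters were made from these same genes, so these values describe the clusters and are no separate evidence.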

How the data were processed

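Single-cell RNA of liver immune cells was measured with 10x Genomics Chromium, and the deposited values are raw UMI counts per gene and barcode for 31053 gene rows and 11192 barcodes. Per the submitters' processing notes the authors used Cell Ranger 2.1.1, STAR, Seurat 2.3.4 and mm10, without stating the role of each, and the matrix header names software version 3.0.0. The 2 deposited sample matrices were byte-identical, so 1 was analysed. A barcode needed 500 UMI, 200 genes and no more than 10% of its UMI from mitochondrial genes, which left 508 to 93990 UMI per barcode (median 4343.5). Barcodes called as doublets by Scrublet were kept.

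UMI were summed per group and scaled to CPM. Shares have exact Clopper-Pearson intervals, CPM exact Poisson intervals and ratios exact conditional intervals. UMI come from 1 library, and intervals cover counting error only. A gene was called past 2-fold on log2((CPM + 1)/(CPM + 1)) with a mean of at least 20 CPM. There are no replicates, so no test was made. Where a group had 0 UMI, bounds use 3 UMI over the group. Named genes are, per comparison, the 12 highest and 8 lowest log2 ratios among genes found in at least 25% of the higher group's cells, the genes that name the cells, the 3 highest and the most different genes of each of 13 lists, and the 5 highest and 5 lowest of each division. Further genes in the text were chosen after their values were seen. The members and lists were chosen with earlier results of these data known.

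Clustering used 2000 variable genes among those in at least 3 cells, log counts scaled to 10000, 30 principal components, 15 neighbours and Leiden resolution 1.0. NK-type cells had Ncr1 and Eomes and no Cd3 UMI. Naive-type CD8 T cells had Cd8b1 and Lef1 but no Gzmb, Ccl5, Foxp3 or Cd4. Foxp3+ T cells had Foxp3 and no Cd8b1. B cells had at least 2 UMI of Ebf1 and Ms4a1 and 1 of Cd79a, with no Cd3. Positions are from GENCODE on GRCm38. The ratio step was tested on simulated data. Tools were Python 3.11.15, scanpy 1.11.5, numpy 2.4.6, scipy 1.17.1, pandas 2.3.3, scikit-learn 1.9.0, igraph 0.11.9 and matplotlib 3.10.9. Alternatives changed the thresholds of the rule, the depth, the pseudocount, the CPM total, the weighting of cells and the cluster resolution.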

Additional observations from a re-analysis of the deposited data

How the results depend on the processing

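No paired analysis was possible because both deposited samples hold the same matrix, and leaving out a replicate was not possible for the same reason. The depth limits low genes: 3 UMI are 2.49 CPM in Ikzf2-high cells and 7.05 CPM in ILC1-type cells. Of 270 log2 ratios of named genes, 151 were past 2-fold, and 23 of these fell below it with no Gzmb criterion, 13 with a mitochondrial limit of 5%, 13 with 10 CPM added, 10 after thinning to 2000 UMI, and at most 7 under each other alternative. The alternatives kept 131 to 293 Ikzf2-high cells. Of the 151 ratios past 2-fold, 3 changed sign under them, and sign changes of smaller ratios were not counted. These were Igfbp4 over ILC1-type cells (0.095 at the 5% mitochondrial limit), Slamf1 over Gzmb+ CD8 T cells (0.20 with no Gzmb criterion) and Abhd17c over Gzmb+ CD8 T cells (-0.055 after thinning). The cause was not tested. With no Gzmb criterion, the Gzmb limit was also dropped from the CD8 group, which grew from 429 to 897 cells. The Ikzf2 limits also changed the Zbtb16+ T cells, to 138 with Ikzf2 at 1 UMI or more and 207 at 3 or more.

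The Cd8a share was 39.9% with Ikzf2 at 1 UMI or more, 56.2% at 3 or more, 35.5% with no Gzmb criterion and 33.7% after thinning. The share with a receptor constant gene was 96.9% after thinning. The largest share in 1 cluster was 71.9% at resolution 0.5, where that cluster also took in 54 of 75 ILC1-type cells and Ikzf2-high cells made up 30.2% of it, against 52.5% at resolution 1.0.

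Counts of genes past 2-fold moved by over 1.5 times as follows. With no Gzmb criterion, 68 were lower than in the CD8 group, which then had no Gzmb limit either and held 897 cells. In that setting 129 were higher and 71 lower than in Zbtb16+ T cells. With 10 CPM added, 69 were lower than in Gzmb+ CD8 T cells, 83 lower than in Zbtb16+ T cells and 86 higher than in ILC1-type cells. At the 5% mitochondrial limit, 204 were lower than in Zbtb16+ T cells and 213 higher than in ILC1-type cells. Lower than in Zbtb16+ T cells were 201 within 2000 to 20000 UMI, and 201 with CPM over a total without mitochondrial, ribosomal, haemoglobin and hepatocyte genes. After thinning, 303 were higher and 254 lower than in Gzmb+ CD8 T cells, 357 higher and 305 lower than in Zbtb16+ T cells, and 388 higher than in ILC1-type cells. With no limit on low values, the higher and lower counts were 1079 and 910 over Gzmb+ CD8 T cells, 1275 and 887 over Zbtb16+ T cells, and 1511 and 1940 over ILC1-type cells.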
